A study of Homo sapiens with 26 samples.

Results

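U2OS is an established human osteosarcoma line, here carrying a luciferase reporter of the clock gene BMAL1 (Arntl::dLUC). The 12 libraries compared came from cells held in neutral medium of pH 7.4 and fall into a first day (4, 8, 12, 16, 20 and 24 h after the medium was applied, 6 libraries) and a second day (28, 32, 36, 40, 44 and 48 h, 6 libraries), out of 26 libraries in the series. They were chosen by medium and hour alone, and the library at 52 h was left out because it lies past the second day. Both days share the line, the reporter, DMEM with 5% FBS, 0.25x penicillin/streptomycin, 25 mM PIPES and 25 mM HEPES, and 0.1 µM dexamethasone, present in the medium from the start to align the circadian phase of the cells. Dishes were then sealed and kept in atmospheric CO2, and the labels record no later change of medium. The same hours at pH 6.3 (12 libraries) serve as a second arm. There is 1 library for each hour and medium, so no hour was repeated. Second-day libraries came from a set of plates seeded and treated 24 h before the set that gave the first day, and the 2 libraries of a pair were taken at the same harvest. Day, time since the medium change, dexamethasone exposure and plate set therefore cannot be told apart, while the nominal circadian hour is the same within a pair.

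As background, cells that stay in the same sealed medium use up glucose, glutamine and serum factors, release lactate and grow denser, and dexamethasone induces glucocorticoid-responsive genes. Serum factors act through actin on the transcription factor SRF, through SMAD proteins on the TGF-β and BMP targets, and through mTORC1 on ribosome production. When mTORC1 is less active, TFEB and TFE3 bind the sequence TCACGTG near genes of lysosomes, of autophagy and of the Rag GTPases that recruit mTORC1 to the lysosome. SRF binds the CArG box near genes of the contractile cytoskeleton. None of these activities was measured here.

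Levels are the authors' FPKM (fragments normalised to transcript length and to library size). Each difference is the second minus the first day on the log2(FPKM + 1) scale, averaged over the 6 pairs with harvest as a block in limma, and a gene was called at a Benjamini-Hochberg adjusted p below 0.05. The pseudocount of 1 makes the difference of low genes too small. Hours stand in for replicates, so the p-values measure how alike the 6 pairs are, not the spread between repeated cultures. The files give no read counts. Depth, inferred from the steps between the lowest values of a library, was 9.70 M fragments at 12 h and 20.3 to 31.8 M in the other 11 libraries. Libraries stood apart in base composition: the correlation, across genes, of a library's deviation from the 12-library mean with transcript GC content was 0.76 at 28 h, -0.65 at 44 h and -0.71 at 48 h, against 0.06 at 4 h and 0.48 at 24 h. Of 10 osteoblast lineage markers 6 reached a mean of 1 FPKM, RUNX2 and SPARC among them, while SP7 was at 0 in all 12 libraries. Their summed level ran from 1162 to 1433 FPKM on the first day and from 866 to 1837 on the second. Of 10 epithelial markers 7 reached that mean, led by KRT8 and KRT18 (sum 195 to 283 FPKM, then 163 to 323). Of 10 leukocyte markers 1 did, LCP1, an actin-bundling protein that many cancer lines also express (sum 14.2 to 23.3 FPKM, then 23.0 to 41.0). LCP1 was higher on the second day in 5 of 6 pairs (0.69 ± 0.16 (SE, adjusted p = 0.0464)), a call lost with upper-quartile scaling, with quantile normalization, with no filter, with no trend and with any 1 pair other than 4 and 28 h left out (adjusted p from 0.0562 to 0.154 in limma), while PTPRC had a mean of 0.29 FPKM. Fewer cells of a kind and less RNA per cell cannot be told apart in bulk RNA.

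Of 11878 genes tested, 480 were higher on the second day (4.04%) and 358 were lower (3.01%), 838 in all (7.06%), with 2786 at an unadjusted p below 0.05. Of those called, 62 were at least 2-fold higher and 30 at least 2-fold lower on this scale. The 2 days did not overlap for 209 genes that were above (1.76%) and 232 that were below (1.95%). The median over all genes tested was -0.01. The largest increases and decreases described next were taken from called genes with at least 5 FPKM in the higher day and 1 direction in 6 of 6 pairs. The counts of called genes moved with the set of pairs. Without the pair of 4 and 28 h they were 1300 and 1659. Without any 1 of the 4 middle pairs (8 and 32, 12 and 36, 16 and 40, or 20 and 44 h) they were 113 and 77, 115 and 79, 100 and 62, and 124 and 73, in that order, and without 24 and 48 h they were 276 and 212. Counts of called members in the gene lists below are to be read against 4.04% higher and 3.01% lower over all genes. List counts with a pair left out are to be read against the totals without that pair. Those after GC correction are to be read against 808 higher and 857 lower over all genes. Those after quantile normalization are to be read against 416 and 241. Rescaling without the genes of mitochondrial DNA gave 1035 and 213, so that the share of increases depends on that scaling. It also set the remaining genes of each library to a common total, and moved the median over all genes from -0.01 to 0.09. Summed FPKM as deposited was lower on the second day in every pair. It ran from 654166 to 687882 on the first day and from 600589 to 655286 on the second. The parts of the mitochondrial genes and of the total were not told apart.

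The largest increase was in F13A1 (chromosome 6, 6144085 to 6321013, hg38), which encodes the A subunit of coagulation factor XIII, a transglutaminase. It lay between 3.44 FPKM at 4 h and 15.4 at 24 h on the first day (median 6.31), and between 19.2 at 28 h and 34.4 at 48 h on the second (median 31.0). Every second-day value stood above every first-day value, and the difference was 1.90 ± 0.19 (SE, adjusted p = 0.00341). TNFRSF11B encodes osteoprotegerin, the secreted decoy receptor that binds RANKL. It lay between 16.4 FPKM at 8 h and 62.2 at 24 h on the first day (median 24.1), and between 72.9 at 28 h and 129 at 48 h on the second (median 112), again with no overlap, and rose by 1.87 ± 0.22 (SE, adjusted p = 0.0049). RRAGD, a Rag GTPase, lay between 3.59 FPKM at 8 h and 11.9 at 24 h on the first day (median 4.67), and between 12.9 at 28 h and 25.7 at 48 h on the second (median 19.9), with a difference of 1.61 ± 0.16 (SE, adjusted p = 0.00341). For each of these 3 genes the highest first-day value was that of 24 h and the lowest second-day value that of 28 h, so that the levels on the 2 sides of the boundary were close. TNFRSF11B read 62.2 FPKM at 24 h and 72.9 at 28 h.

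The other 7 of the 10 largest increases were SLC14A1, a urea transporter (1.79), PLCH1, a phospholipase C (1.76), C4orf51 (1.66), GULP1, an adaptor for the engulfment of dead cells (1.603), SDPR, a caveolar coat protein also named cavin-2 (1.58), SMOC1, a secreted matricellular protein (1.54), and EVI2A (1.51). Their adjusted p in limma ran from 0.00221 for GULP1 to 0.0403 for SMOC1. PLCH1 was the 1 gene of the 10 whose days overlapped, because its 3.496 FPKM at 24 h was above the 3.37 at 28 h. SMOC1 climbed through the first day from 6.45 FPKM at 4 h to 36.8 at 24 h and lay between 40.9 and 55.6 on the second.

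Within those limits the largest decrease was in TAGLN (chromosome 11, 117199321 to 117204782, hg38), which encodes transgelin, an actin-binding protein of smooth muscle and activated fibroblasts. It lay between 117 FPKM at 24 h and 227 at 4 h on the first day (median 171), and between 18.8 at 48 h and 154 at 28 h on the second (median 47.1). The second-day value at 28 h was above the first-day value at 24 h (154 against 117 FPKM), so the days overlapped, although the later library was lower in 6 of 6 pairs. TAGLN fell by 1.82 ± 0.24 (SE, adjusted p = 0.00738). LEFTY1, named after its values were seen, was called with a slightly larger difference (-1.84, adjusted p = 0.0455 in limma), but was lower in 5 of 6 pairs, and it has a near-identical neighbour, LEFTY2. CNN1, which encodes calponin 1, a further actin-binding protein, lay between 43.9 FPKM at 24 h and 117 at 4 h on the first day (median 60.5), and between 9.59 at 48 h and 44.9 at 28 h on the second (median 18.7), and fell by 1.62 ± 0.11 (SE, adjusted p = 0.00173). ID1 and ID3 encode inhibitors of basic helix-loop-helix factors and are classic BMP targets. ID1 was highest at 4 h (65.2 FPKM), lay at 14.5 at 24 h and ended at 5.20 at 48 h, and fell by 1.42 ± 0.15 (SE, adjusted p = 0.00366).

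The 10 largest decreases also held NFATC2, a calcium-regulated transcription factor (-1.64), PDLIM1, a cytoskeletal adaptor (-1.58), KRT17, a keratin (-1.53), NOX4, an NADPH oxidase (-1.40), SLCO2A1, a prostaglandin transporter (-1.35), and ID3 (-1.34), with adjusted p from 0.00459 for NFATC2 to 0.0271 for SLCO2A1. NFATC2 and PDLIM1 were the 2 of the 10 whose days did not overlap. KRT17 was held up by a single second-day library: it read 104 FPKM at 28 h and between 13.01 and 37.5 in the other 5. Of the 20 genes named as largest, 15 stayed past the threshold without each pair in turn. SLC14A1, SMOC1, KRT17, NOX4 and SLCO2A1 did not: without any 1 of the pairs of 8 and 32, 12 and 36, or 16 and 40 h, their adjusted p lay between 0.0504 and 0.135, and SLC14A1 alone of the 5 passed without 20 and 44 h. Without the harvest as a block ID3 did not pass (adjusted p = 0.0684).

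**Figure D1:**
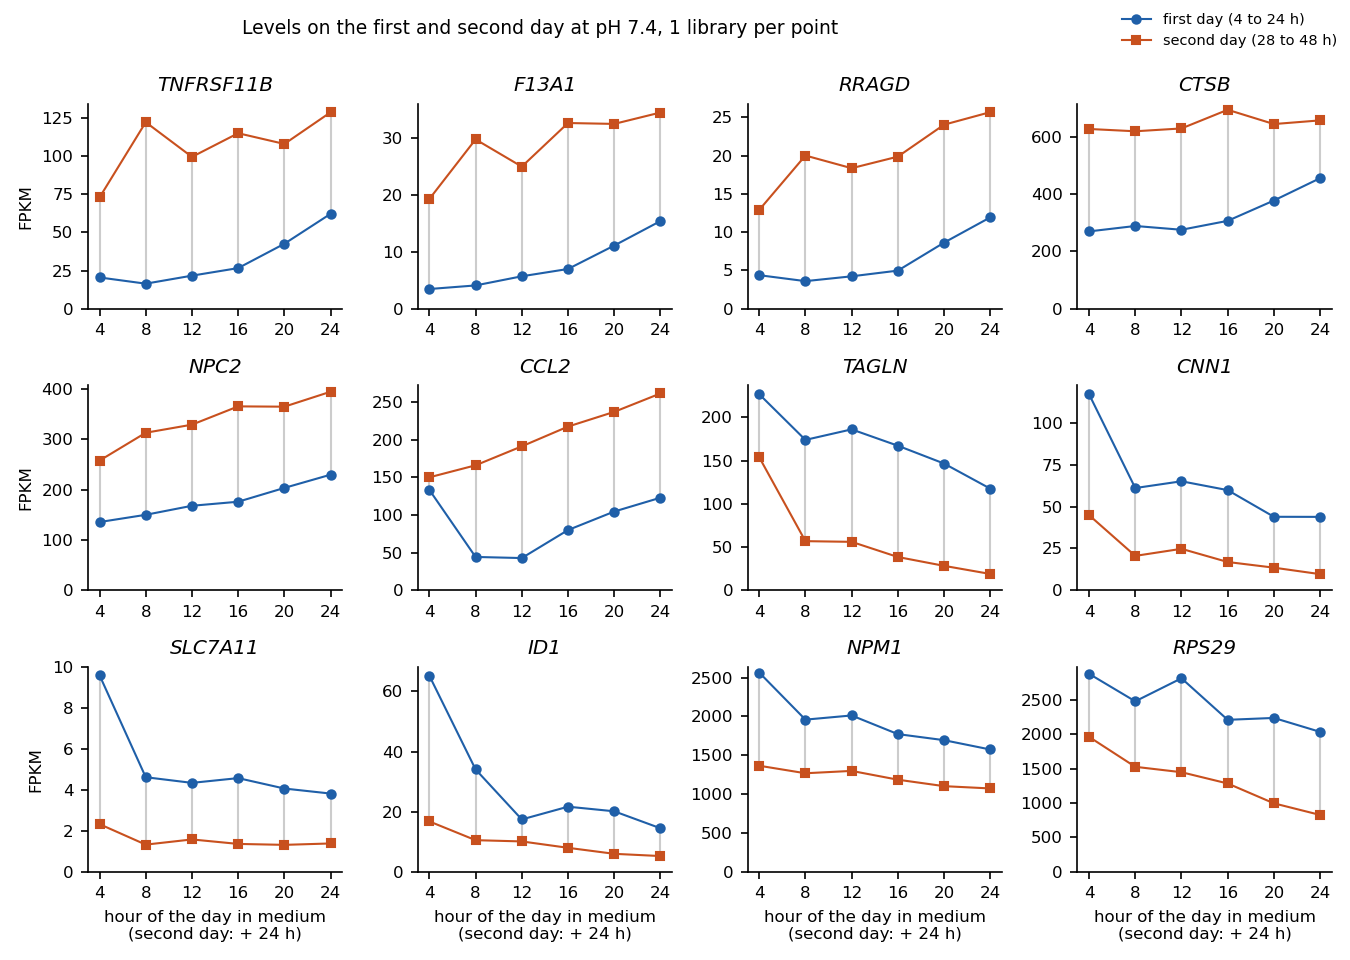
FPKM of 12 genes against the hour of the day in neutral medium, with the first day in blue circles and the second day in orange squares, 1 library per point, and grey lines joining the 2 libraries of a pair. TNFRSF11B and F13A1 are higher in every second-day library, TAGLN and CNN1 are lower in every pair, and the first-day value at 24 h lies nearest to the second day in most panels.

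The order of the hours was a common feature of the called genes. Of the 480 that were higher, 302 (62.9%) had their highest first-day value at 24 h and 411 (85.6%) their lowest second-day value at 28 h, against 21.5% and 39.6% of all genes tested. Of the 358 that were lower, 229 (64.0%) had their lowest first-day value at 24 h and 243 (67.9%) their highest second-day value at 28 h, against 12.2% and 39.1%. These genes were selected on the same libraries, so the shares are a description. At the ends, 283 of the higher genes (59.0%) were highest on the second day at 48 h, against 23.5% of all genes tested, and 255 of the lower genes (71.2%) were lowest there, against 36.8%.

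Several genes of the contractile cytoskeleton fell. Of 17 tested in a list of actin and SRF targets, 6 were lower and none higher (ACTB, ACTG1, CNN1, SRF, TAGLN and TPM1), with a list median of -0.36. Without 1 pair the count of lower members was 9 for 4 and 28 h, 3 or 4 for the middle pairs and 5 for 24 and 48 h. TPM1, a tropomyosin that stabilises actin filaments, lay between 244 FPKM at 24 h and 429 at 8 h on the first day (median 364), and between 200.1 at 48 h and 233 at 36 h on the second (median 214), and fell by 0.66 ± 0.12 (SE, adjusted p = 0.0212). ACTB, β-actin, fell by 0.33 ± 0.07 (SE, adjusted p = 0.0331), from a median of 2870.1 to 2168 FPKM. The promoters of SRF and ACTG1 are shown because both genes were lower and their windows hold the CArG box; the pair was picked after their values were seen. SRF, which encodes the factor itself, had medians of 8.19 and 6.30 FPKM and fell by 0.43 ± 0.10 (SE, adjusted p = 0.0497), close to the threshold. ACTG1, γ-actin, had medians of 694 and 459 FPKM and fell by 0.51 ± 0.07 (SE, adjusted p = 0.00821). The 250 bases before each start site (RefSeq, GRCh38.p14), with the CArG box in capitals, read 5′ to 3′ on the gene's strand:
SRF (chr6:43171019-43171268, plus strand): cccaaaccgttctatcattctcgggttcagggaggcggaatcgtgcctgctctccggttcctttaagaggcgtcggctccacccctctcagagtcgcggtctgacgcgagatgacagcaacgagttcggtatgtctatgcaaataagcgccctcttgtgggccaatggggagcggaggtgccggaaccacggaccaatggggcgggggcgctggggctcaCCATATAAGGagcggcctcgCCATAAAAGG
ACTG1 (chr17:81512800-81513049, minus strand): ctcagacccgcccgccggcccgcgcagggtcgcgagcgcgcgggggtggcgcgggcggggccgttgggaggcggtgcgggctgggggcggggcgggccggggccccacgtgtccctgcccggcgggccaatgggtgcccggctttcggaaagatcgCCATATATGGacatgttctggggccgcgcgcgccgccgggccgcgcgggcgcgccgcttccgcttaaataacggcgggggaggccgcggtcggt
SRF holds 2 boxes, starting 30 and 10 bases before its start site, and ACTG1 holds 1, starting 94 bases before. On both strands, 5 of the 14 list members with a RefSeq window held a CArG box (ACTG1, CNN2, FHL2, FLNA and SRF), against 94 of 9703 tested genes (0.969%). The box was present in 3 of 371 higher genes (0.809%) and in 6 of 294 lower genes (2.04%). Of the 6 called list members 4 had a window, and 2 of those held the box. CNN2, FHL2 and FLNA hold it and were not called. A match is a description of letters and not evidence that SRF was bound, and it says nothing on the day difference.

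Some genes of the TGF-β and BMP response, the extracellular matrix and the YAP/TEAD targets were called as well. Of 9 TGF-β and BMP genes tested, 3 were lower (ID1, ID3 and TGFBI) and none higher, against 6 lower and 1 higher without 4 and 28 h and 2 or 3 lower without a middle pair. TGFBI, a secreted matrix protein, fell by 0.43 ± 0.08 (SE, adjusted p = 0.0195), with every second-day value below the first day. Of 21 matrix genes tested, 3 were lower, COL3A1 and TNC among them, and none higher, and without a middle pair 1 passed. TNC, tenascin C, read between 65.1 and 81.9 FPKM on the first day and fell to 23.0 by 48 h (-0.90, adjusted p = 0.0177). COL1A1 differed by -0.44 ± 0.44 (SE, adjusted p = 0.594), which is not past the threshold. Of 20 YAP/TEAD targets tested, 4 rose (ANKRD1, DOCK5, MYOF and RBMS3) and 2 fell (CCDC80 and CTGF), with a median of 0.06. ANKRD1, a nuclear ankyrin-repeat protein, lay between 33.2 FPKM at 8 h and 89.0 at 24 h on the first day (median 68.1), and between 99.1 at 28 h and 175 at 48 h on the second (median 122), and rose by 1.09 ± 0.14 (SE, adjusted p = 0.00738). CTGF, a matricellular growth factor also named CCN2, fell by 0.50 ± 0.09 (SE, adjusted p = 0.0219). The CTGF call was lost without the harvest as a block (adjusted p = 0.0529 in limma). In the YAP/TEAD list 2 were higher and 1 lower without a middle pair, and 7 and 2 without 4 and 28 h.

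Some lysosomal genes and 2 Rag GTPases rose. Of 28 lysosome and autophagy genes tested, 10 were higher and none lower, ATP6V1A, ATP6V1B2, CTSB, HEXA, LAMP2, NPC1, NPC2 and UVRAG among them, with a median of 0.31 against -0.01 over all genes. The count was 14 after correction of each library for GC content, 5 or 6 without a middle pair, 11 with 1 lower without 4 and 28 h, and 10 without 24 and 48 h. CTSB, the protease cathepsin B, lay between 269 FPKM at 4 h and 455 at 24 h on the first day (median 297), and between 619 at 32 h and 694 at 40 h on the second (median 636), and rose by 1.00 ± 0.10 (SE, adjusted p = 0.0035). NPC2, which carries cholesterol out of the lysosome, lay between 136 FPKM at 4 h and 229.7 at 24 h on the first day (median 172), and between 258 at 28 h and 395 at 48 h on the second (median 347), with every second-day value above the first day, and rose by 0.94 ± 0.06 (SE, adjusted p = 0.00173). UVRAG, a protein of autophagosome maturation, rose by 1.05 ± 0.10 (SE, adjusted p = 0.00341). Of 27 genes of the mTORC1 pathway, 3 rose (FNIP1, RRAGC and RRAGD) and none fell, with a list median of 0.03. FNIP1 is a partner of folliculin, which acts on RagC and RagD. Without the pair of 4 and 28 h, 4 of the 27 were higher and 4 lower.

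RRAGC and FNIP1 are printed as members of that list whose RefSeq window holds TCACGTG, chosen after their values were seen. How many other members of that list hold the motif was not counted. RRAGC had medians of 39.2 and 62.6 FPKM and rose by 0.68 ± 0.07 (SE, adjusted p = 0.00393). FNIP1 had medians of 13.2 and 20.4 FPKM and rose by 0.58 ± 0.08 (SE, adjusted p = 0.00851). In both windows the match lies on the other strand and reads CACGTGA, in capitals:
RRAGC (chr1:38859773-38860022, minus strand): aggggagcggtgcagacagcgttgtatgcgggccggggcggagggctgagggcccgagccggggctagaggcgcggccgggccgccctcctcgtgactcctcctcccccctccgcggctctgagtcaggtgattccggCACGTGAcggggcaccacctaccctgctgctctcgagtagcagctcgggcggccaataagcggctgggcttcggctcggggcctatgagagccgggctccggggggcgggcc
FNIP1 (chr5:131797018-131797267, minus strand): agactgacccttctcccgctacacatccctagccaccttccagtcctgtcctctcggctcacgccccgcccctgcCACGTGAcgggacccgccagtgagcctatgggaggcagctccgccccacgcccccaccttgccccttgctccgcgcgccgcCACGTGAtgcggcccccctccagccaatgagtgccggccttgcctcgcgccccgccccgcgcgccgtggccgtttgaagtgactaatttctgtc
The motif starts 112 bases before the start site in RRAGC, and 175 and 94 bases before in FNIP1. Over windows of this length and both strands, it was present in 34 of 371 higher genes (9.16%), in 12 of 294 lower genes (4.08%) and in 517 of 9703 genes tested (5.33%). It was present in 6 of the 18 lysosome and autophagy genes with a window, and in 0 of the 2 called ones with a window. The letters say nothing on which factor was present.

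**Figure D2:**
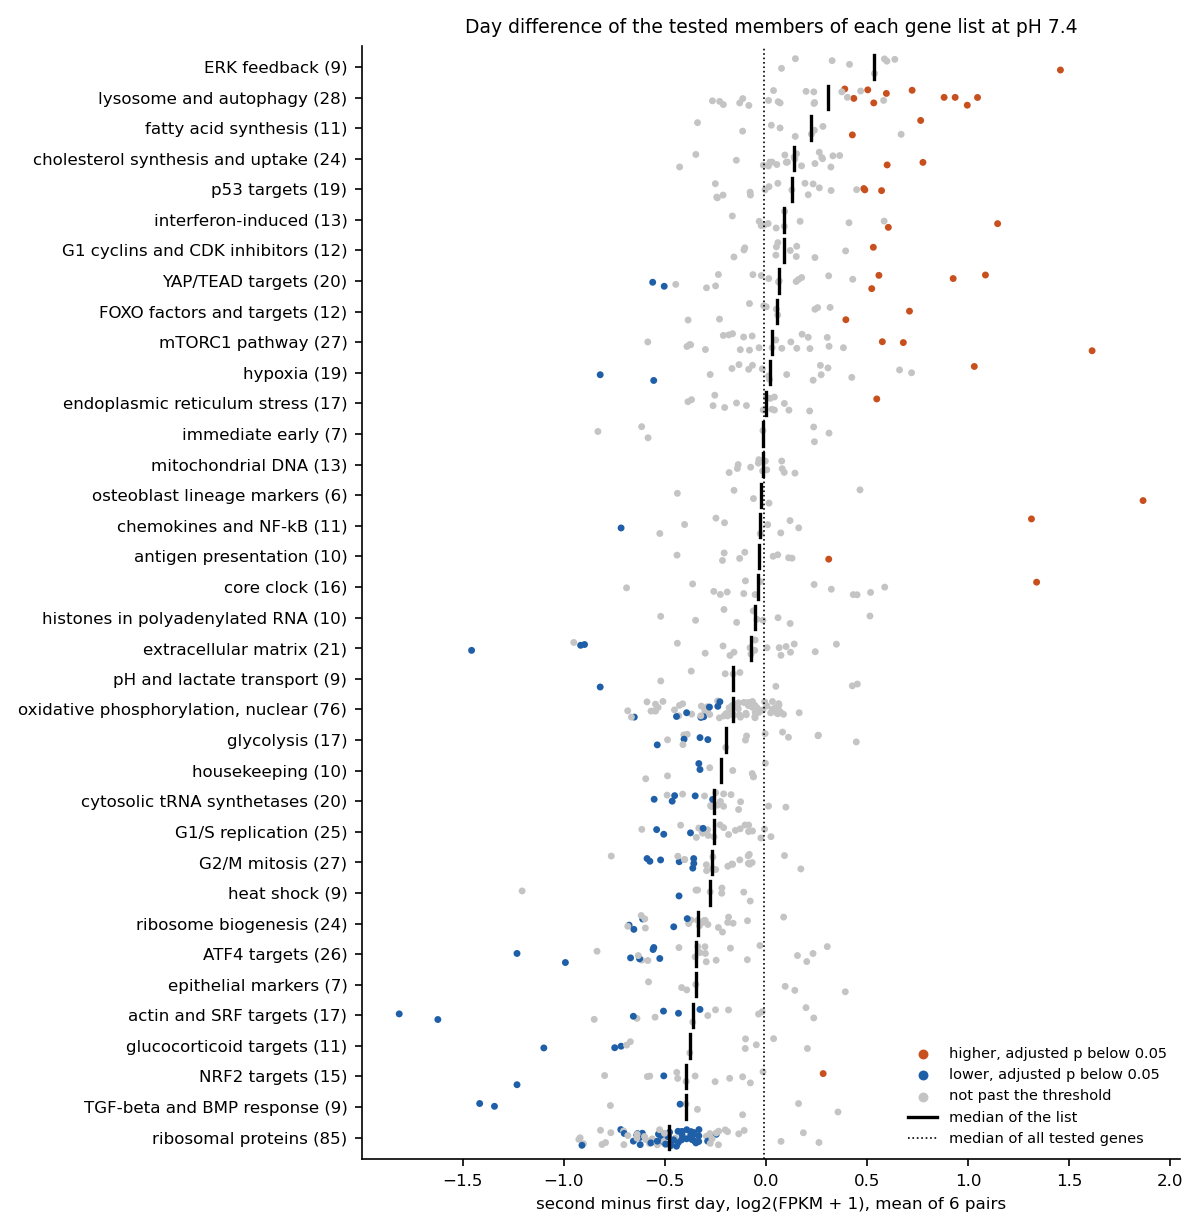
Difference between the days on the log2(FPKM + 1) scale for each tested member of 36 gene lists, 1 point per gene, coloured by the limma call, with black bars for list medians and a dotted line for the median of all genes tested. Ribosomal proteins sit lowest, with 45 of 85 members called lower and none higher, and lysosome and autophagy genes show 10 called members, all higher.

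Many ribosomal protein genes fell. Of 85 cytosolic ribosomal protein genes tested, 45 were lower and none higher, and 82 had a difference below 0, with a median of -0.48. Their share of summed FPKM went from 13.8 ± 1.03% (SD) on the first day to 10.98 ± 1.36% on the second and was lower in 6 of 6 pairs. RPS29 lay between 2033 FPKM at 24 h and 2878 at 4 h on the first day (median 2357), and between 825 at 48 h and 1961 at 28 h on the second (median 1365), and fell by 0.91 ± 0.10 (SE, adjusted p = 0.00459). RPS18 fell by 0.70 ± 0.07 (SE, adjusted p = 0.00341). Both, like RPS28 and NPM1, have near-identical pseudogene copies, so the counting of their reads is uncertain. The count of lower members was 69 after GC correction with 1 member higher, 12 after quantile normalization, 73 without 4 and 28 h, between 15 and 17 without a middle pair, and 39 without 24 and 48 h. Of 24 ribosome biogenesis genes, 5 fell (FBL, NOLC1, NOP16, NOP56 and NPM1) and none rose, with 2 or 3 past the threshold without a middle pair and 12 without 4 and 28 h. NPM1, the nucleolar chaperone nucleophosmin, lay between 1574 FPKM at 24 h and 2565 at 4 h on the first day (median 1865), and between 1072 at 48 h and 1365 at 28 h on the second (median 1226), and fell by 0.65 ± 0.06 (SE, adjusted p = 0.00286). FBL, fibrillarin, fell by 0.68 ± 0.08 (SE, adjusted p = 0.0049). MYC, the transcription factor that drives these genes in many cells, was highest at 4 h (34.0 FPKM), and fell by 0.60 ± 0.13 (SE, adjusted p = 0.0345). Without the harvest as a block MYC did not pass (adjusted p = 0.155 in limma), and neither did NOP16 (0.149).

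Some ATF4 targets and tRNA synthetases fell. Of 26 ATF4 targets tested, 7 fell and none rose (ASNS, CEBPB, CTH, PSAT1, SLC3A2, SLC7A11 and SLC7A5), with a median of -0.34, and 3 or 4 were past the threshold without a middle pair and 13 without 4 and 28 h. SLC7A11, the cystine transporter, lay between 3.82 FPKM at 24 h and 9.61 at 4 h on the first day (median 4.46), and between 1.31 at 44 h and 2.33 at 28 h on the second (median 1.37), with no overlap, and fell by 1.23 ± 0.12 (SE, adjusted p = 0.00341). ASNS, asparagine synthetase, lay between 46.7 FPKM at 24 h and 75.8 at 4 h on the first day (median 52.3), and between 34.1 at 44 h and 46.5 at 28 h on the second (median 36.4), with no overlap, and fell by 0.53 ± 0.08 (SE, adjusted p = 0.0142). SLC7A5, a transporter of leucine, fell by 0.99 ± 0.19 (SE, adjusted p = 0.0258), although it read 34.6 FPKM at 28 h and 37.0 at 4 h. The SLC7A5 call was lost without the harvest as a block (adjusted p = 0.135 in limma). Of 20 cytosolic tRNA synthetases, 5 fell (KARS, MARS, SARS, WARS and YARS) and none rose. Without any 1 of the middle pairs none of the 20 passed, and without 4 and 28 h 7 did.

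Some cell cycle genes were lower, while the proliferation marker MKI67 differed by -0.07 ± 0.07 (SE, adjusted p = 0.578) and by 0.04 after rescaling without the genes of mitochondrial DNA. Of 27 mitotic genes 7 fell (AURKA, BIRC5, CCNB1, KIF23, PLK1, TPX2 and UBE2C) and none rose, and of 25 replication genes 4 fell (FEN1, MCM7, RRM2 and UNG) and none rose. PLK1, a mitotic kinase, lay between 69.5 FPKM at 24 h and 81.7 at 4 h on the first day (median 77.2), and between 39.3 at 48 h and 64.2 at 28 h on the second (median 51.0), with no overlap, and fell by 0.59 ± 0.08 (SE, adjusted p = 0.00851). UBE2C, a ubiquitin-conjugating enzyme of mitotic exit, fell by 0.57 ± 0.06 (SE, adjusted p = 0.00391). MCM7, a subunit of the replicative helicase, fell by 0.51 ± 0.11 (SE, adjusted p = 0.0366). Without a middle pair 1 or 2 mitotic and no replication genes passed, without 4 and 28 h 15 and 11 did, and without 24 and 48 h 4 and 3 did. GC correction gave 14 lower mitotic genes and quantile normalization 4. The letters TTTGAA, the core of the cell cycle homology region, were present on either strand in the windows of 12 of 22 mitotic genes, against 8.68% of tested genes. They were in 40 of 371 higher genes (10.8%) and in 35 of 294 lower genes (11.9%). Of the 7 called mitotic genes 3 had a window, and 2 of those held the letters. The match describes letters and says nothing on the day difference. A cyclin of G1, CCND2, rose by 0.53 ± 0.10 (SE, adjusted p = 0.0206), a call lost without any 1 pair other than 4 and 28 h, and CCND1 differed by 0.39 ± 0.10 (SE, adjusted p = 0.0581).

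Among genes of energy metabolism, none of the 13 protein genes of mitochondrial DNA was called, and their median was -0.02, with 3 lower after GC correction and 2 higher after quantile normalization. Their share of summed FPKM was 19.1 ± 1.16% (SD) on the first day and 20.3 ± 1.87% on the second, lower in 1 of 6 pairs. Of 76 nuclear genes of oxidative phosphorylation, 8 fell and none rose, with a median of -0.17. After rescaling without the genes of mitochondrial DNA 2 were lower, with a median of -0.05. After quantile normalization 4 were lower, with a median of -0.07. Without a middle pair 1 passed, without 24 and 48 h 4 did and without 4 and 28 h 28 did. ATP5G1, a subunit of the ATP synthase rotor, fell by 0.65 ± 0.07 (SE, adjusted p = 0.00459). Of 17 glycolysis genes 4 fell (ENO1, LDHA, PGAM1 and PKM) and none rose. But without a middle pair none passed, without 24 and 48 h 2 did, and without 4 and 28 h 8 were lower and 2 higher. None of the 17 was called after quantile normalization, and 1 was lower and 1 higher after rescaling without the genes of mitochondrial DNA. LDHA, lactate dehydrogenase A, lay between 647 FPKM at 24 h and 1085 at 12 h on the first day (median 910.0), and between 576 at 44 h and 649.9 at 40 h on the second (median 618), and fell by 0.54 ± 0.11 (SE, adjusted p = 0.0297). CA12, a membrane carbonic anhydrase, was lower without overlap and fell by 0.82 ± 0.10 (SE, adjusted p = 0.0049), while CA9 did not reach a mean of 1 FPKM. SLC2A3, the glucose transporter GLUT3, rose by 1.03 ± 0.23 (SE, adjusted p = 0.0387), and VEGFA, a hypoxia-inducible growth factor, differed by 0.72 ± 0.26 (SE, adjusted p = 0.148).

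The clock genes were compared at matched nominal circadian hours. Of 16 core clock genes tested, 1 was called, where 7.06% of all genes tested were. NPAS2, a paralog of CLOCK that pairs with BMAL1, lay between 15.7 FPKM at 12 h and 55.3 at 24 h on the first day (median 23.1), and between 42.6 at 36 h and 105 at 48 h on the second (median 62.9), was higher in 6 of 6 pairs and rose by 1.34 ± 0.11 (SE, adjusted p = 0.00221). ARNTL, which encodes BMAL1, was lower in 6 of 6 pairs, with medians of 27.7 and 23.7 FPKM, but differed by -0.36 ± 0.12 (SE, adjusted p = 0.104). NR1D1, DBP and PER1 differed by 0.32, 0.43 and -0.69, with adjusted p of 0.549, 0.322 and 0.14. NR1D1 read 20.6 FPKM at 28 h and 8.67 at 4 h, and PER1 read 20.7 and 14.7. Without the pair of 4 and 28 h, 5 clock genes were higher and 2 lower, where 1300 and 1659 of all genes tested were.

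Of 11 glucocorticoid targets tested, 3 fell (DUSP1, FKBP5 and NFKBIA) and none rose. FKBP5, a co-chaperone of the glucocorticoid receptor, lay between 21.4 FPKM at 4 h and 51.6 at 12 h on the first day (median 36.1), and between 18.5 at 48 h and 20.9 at 40 h on the second (median 19.8). The first day had a peak at 12 h and the second day was flat, with no overlap. FKBP5 fell by 0.75 ± 0.17 (SE, adjusted p = 0.0441). DUSP1, a phosphatase that turns off MAP kinases, fell by 1.10 ± 0.18 (SE, adjusted p = 0.0155). TSC22D3, also named GILZ, reached 29.04 FPKM at 8 h and at most 10.6 on the second day, but differed by -0.67 ± 0.24 (SE, adjusted p = 0.141). Without a middle pair none or 1 of the 11 passed, without 24 and 48 h 1 did and without 4 and 28 h 5 did. Of 11 chemokine and NF-κB genes, CCL2 rose and NFKBIA fell, and neither call held without a middle pair. CCL2, a chemokine that draws monocytes, was high at 4 h (133 FPKM), fell to 42.7 at 12 h and climbed from then on to 262 at 48 h, and rose by 1.31 ± 0.23 (SE, adjusted p = 0.0189).

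Whether the difference between the days changed from the first to the last pair was asked with a slope over the 6 pairs, given per 20 h. It was past the threshold for 4106 genes (34.6%), falling for 3242 (27.3%) and rising for 864 (7.27%), so the pairs differed among themselves. The count was 856 falling and 421 rising after GC correction, and 108 and 11 without the 4 libraries at 4, 24, 28 and 48 h. Without 1 pair it ran from 1887 (without 24 and 48 h) to 3388 falling and from 273 to 1093 rising, with 514 rising without 4 and 28 h, 523 without 16 and 40 h, 385 without 20 and 44 h and 273 without 24 and 48 h. Scaling moved the split as well, to 2500 falling and 2112 rising with upper-quartile scaling, 2160 and 2243 with quantile normalization, and 2934 and 1265 without the genes of mitochondrial DNA. With quantile normalization the median slope over all genes went from -0.22 to 0.18.

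RAB11FIP4, a binding partner of the vesicle GTPase RAB11, had the steepest fall, -5.02 ± 0.22 (SE, adjusted p = 0.000128). It climbed from 15.3 FPKM at 4 h to 98.4 at 24 h, stood at 145 at 28 h and declined to 31.5 at 48 h, so the later library was higher in the first pair and lower in the last. The next 4, HSPB1, a small heat shock protein, RPS28, AMDHD2 and CORO1B, were highest at 28 h. Without the pair of 4 and 28 h their slopes went from -4.55 to -2.90 for HSPB1, from -4.33 to -2.87 for AMDHD2, from -4.32 to -3.22 for RPS28 and from -4.04 to -2.19 for CORO1B, which no longer passed (adjusted p = 0.103 in limma). HSPB1 read 283 FPKM at 28 h and between 8.37 and 41.0 in the other 5 second-day libraries, and RPS28 read 280.5 at 28 h and between 8.63 and 30.7 in the other 5. Of the 5 steepest rises, CXCL8, BIRC3 and TGFB2 were highest at 4 h. CXCL8, a chemokine for neutrophils, read 109 FPKM at 4 h and at most 3.96 in the other 5, with a slope of 5.45 ± 1.18 (SE, adjusted p = 0.00956) that was 2.67 without the pair of 4 and 28 h. BIRC3, an NF-κB target, went from 100.6 at 4 h to 16.4 at 24 h and from 16.5 at 28 h to 30.1 at 48 h, a slope of 3.37 ± 0.37 (SE, adjusted p = 0.00097). TGFB2, a ligand of the TGF-β receptors, went from 74.7 FPKM at 4 h to 8.59 at 24 h, with 12.96 at 28 h and 18.2 at 48 h.

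**Figure D3:**
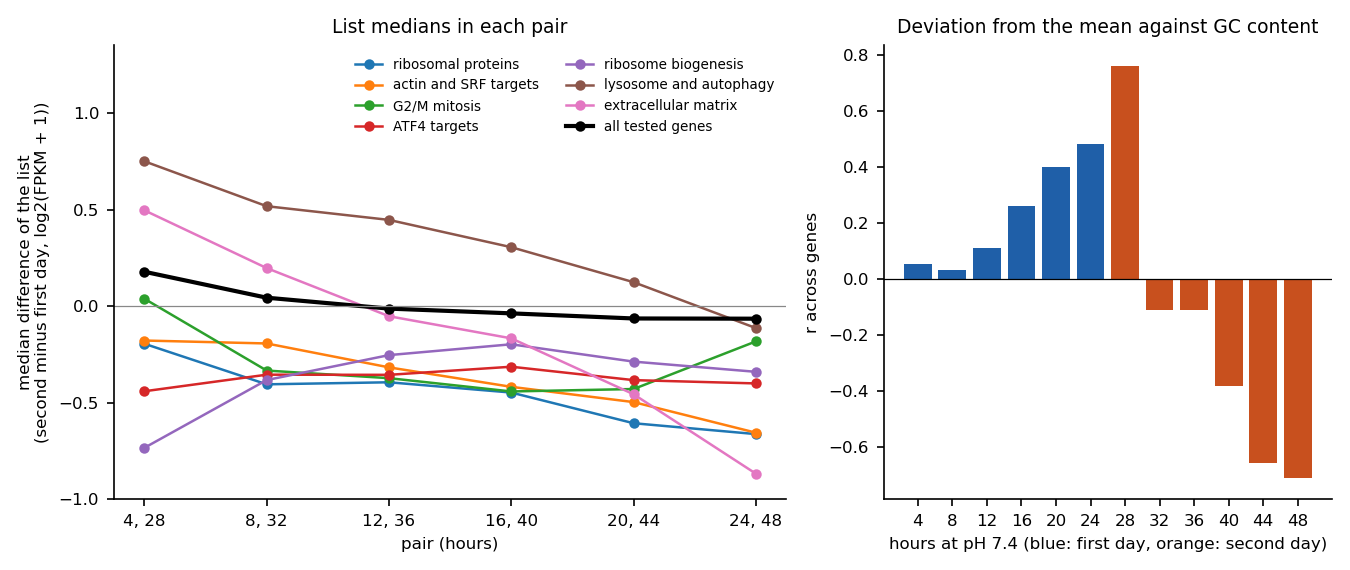
Left, the median difference between the days of 7 gene lists and of all genes tested (black) in each of the 6 pairs, on the log2(FPKM + 1) scale. Right, for each of the 12 libraries, the correlation across genes of its deviation from the mean with transcript GC content. The lysosome median goes from 0.75 in the pair of 4 and 28 h to -0.11 in the pair of 24 and 48 h, and the GC correlation goes from 0.76 at 28 h to -0.71 at 48 h.

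Pair by pair, the ribosomal protein median was below 0 in all 6 pairs, from -0.20 at 4 and 28 h to -0.66 at 24 and 48 h, and the actin and SRF median went from -0.18 to -0.66. The matrix median went from 0.50 to -0.87, and the median over all genes tested went from 0.18 to -0.07. The ATF4 median lay between -0.31 and -0.44 in every pair, and the ribosome biogenesis median was lowest in the first pair (-0.73) and lay between -0.20 and -0.38 in the others. Median GC content was 43.0% for the higher genes, 50.9% for the lower genes and 47.9% for all genes tested. After correction 709 of the 836 called genes with GC content were still called, and none of the 836 had changed sign.

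The same contrast in acidic medium was run over plates from the same sets and harvests. It shows for which genes the signed day difference was not the same in the media. Neutral above acid does not mean a larger change at pH 7.4. The day difference itself differed between media for 1786 of 11824 genes (15.1%), with neutral above acid for 711 (6.01%) and below for 1075 (9.09%). With upper-quartile scaling the split was 861 and 766, with quantile normalization 893 and 876. Without 1 harvest the counts ran from 246 (without 12 and 36 h) to 1017 (without 24 and 48 h) and from 326 (without 12 and 36 h) to 1669 (without 4 and 28 h), with 285 and 397 without 8 and 32 h, 294 and 414 without 16 and 40 h, and 430 and 609 without 20 and 44 h. CXCL14, a chemokine, had the largest difference in the positive direction, at 0.43 at pH 7.4 and -2.49 at pH 6.3, a difference of 2.92 ± 0.19 (SE, adjusted p = 1.15e-06). Its mean in acid went from 64.0 to 10.0 FPKM, whereas at pH 7.4 it lay between 48.0 and 87.1 on the first day and between 77.5 and 96.0 on the second. FMNL2, a formin that elongates actin filaments, differed by 1.32 at pH 7.4 and -1.01 at pH 6.3, a difference of 2.34 ± 0.26 (SE, adjusted p = 0.00014). HMGA2, a chromatin architectural protein, differed by 0.62 at pH 7.4 and -1.55 at pH 6.3, a difference of 2.17 ± 0.27 (SE, adjusted p = 0.000306). The chosen genes in the other direction were the acute-phase genes SAA1 and SAA2, C8orf4, AKR1C1 and RP11-598P20.5. AKR1C1 passed the filter on low values only through the second day in acid, where it is high, so its difference is a description. SAA1 and SAA2 are near-identical copies, so the split of their reads is uncertain. SAA1 differed by 0.71 at pH 7.4 and 3.90 at pH 6.3, a difference of -3.20 ± 0.60 (SE, adjusted p = 0.00362), with a mean of 34.4 FPKM on the first and 299 on the second day in acid.

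Of the 10 largest increases at pH 7.4, 5 were larger there than at pH 6.3 (F13A1, PLCH1, GULP1, SDPR and EVI2A), and of the 10 largest decreases 2 were (NFATC2 and NOX4). Over all genes the day difference was neutral above acid for 6.01% and below for 9.09%. The named genes were picked for large differences in the same neutral libraries, which favours a larger difference there. These counts are therefore a description. F13A1 differed by 1.90 at pH 7.4 and -0.02 at pH 6.3, a difference of 1.92 ± 0.45 (SE, adjusted p = 0.0123). TNFRSF11B differed by 1.87 at pH 7.4 and 1.30 at pH 6.3, a difference of 0.57 ± 0.32 (SE, adjusted p = 0.245), and ID1 by -1.42 at pH 7.4 and -1.45 at pH 6.3, a difference of 0.04 ± 0.27 (SE, adjusted p = 0.947), so for these the 2 media are not shown to differ. Of the 470 higher genes that were also in the 24-library fit, 313 (66.6%) had a difference above 0 in acid, against 54.5% of all genes in both fits, and of the 358 lower genes 268 (74.9%) were below 0 in acid, against 45.5%. ASNS differed by -0.53 at pH 7.4 and 0.92 at pH 6.3, a difference of -1.44 ± 0.16 (SE, adjusted p = 0.000136). MKI67 differed by -0.07 at pH 7.4 and -0.80 at pH 6.3, a difference of 0.73 ± 0.12 (SE, adjusted p = 0.00219), and ARNTL by -0.36 at pH 7.4 and 0.53 at pH 6.3, a difference of -0.90 ± 0.18 (SE, adjusted p = 0.00525). CTGF differed by -0.50 at pH 7.4 and -1.58 at pH 6.3, a difference of 1.07 ± 0.27 (SE, adjusted p = 0.0153).

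**Figure D4:**
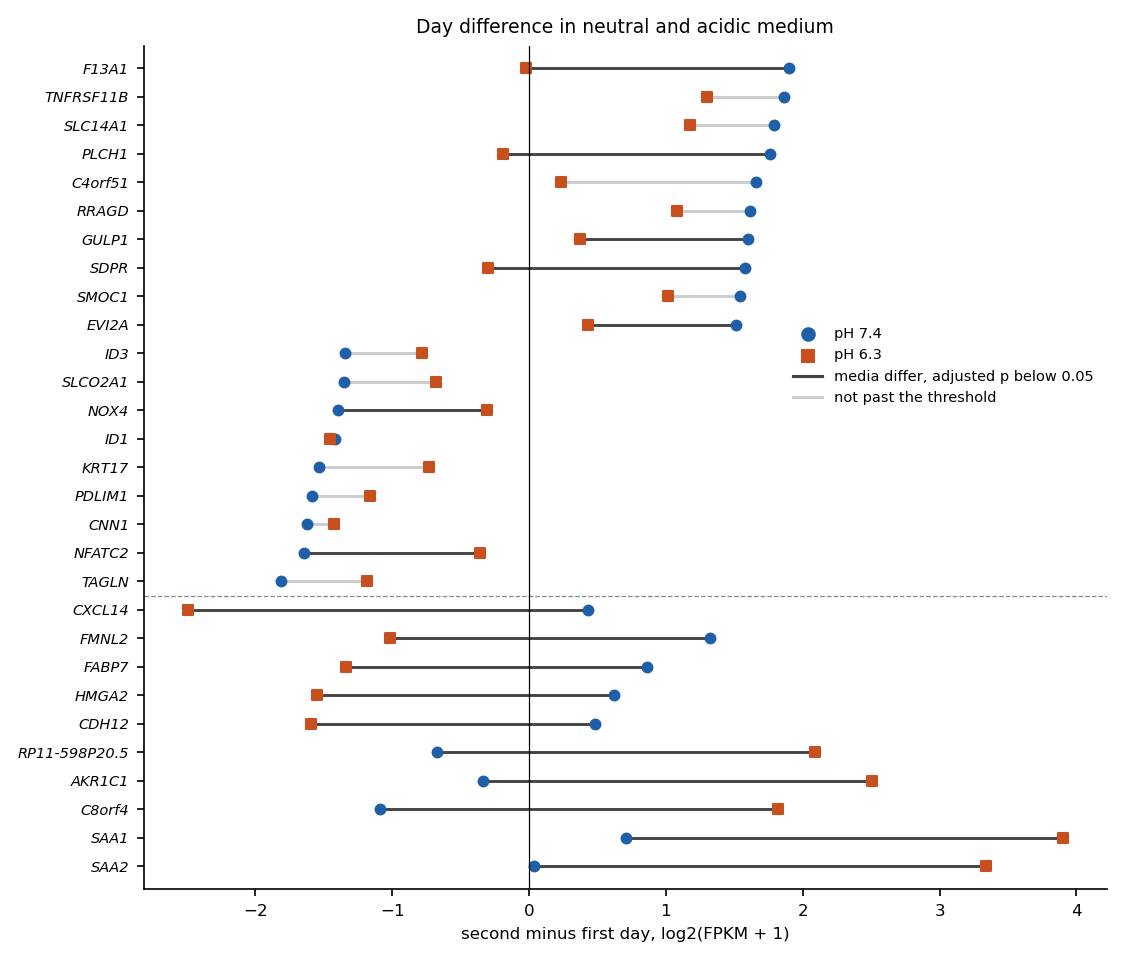
Second minus first day on the log2(FPKM + 1) scale at pH 7.4 (blue circles) and pH 6.3 (orange squares) for the 10 largest increases and 9 of the 10 largest decreases at pH 7.4 (above the dashed line) and for the 10 genes named for a difference between media (below it). Dark lines join genes whose media differ at an adjusted p below 0.05. F13A1 shows 1.90 in neutral and -0.02 in acidic medium, and ID1 shows nearly the same fall in both.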

How the data were processed

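Polyadenylated RNA of U2OS cells was sequenced with a stranded kit, per the labels' protocols. The authors deposited FPKM for each library, and per the submitters' processing notes STAR, Cufflinks and hg38 were used. For versions, annotation and strand setting nothing is stated in the labels. The deposited table holds 19806 rows, of which 19545 matched GENCODE 29 by identifier; 101 symbols stood on several rows and the row with the highest mean was kept. No sum of counts is given, so depth was estimated from low values of genes with 1 transcript.

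Values were log2(FPKM + 1), and genes averaging 1 FPKM or more across the 12 libraries (11878), or across 24 for the comparison of media, were tested. limma 3.58.1 in R 4.3.3 fitted the day with the harvest as a block and an empirical Bayes trend, Benjamini-Hochberg over all genes. Harvest pairs come from the labels' protocol; the deviations of the 2 libraries of a pair from their day means correlated between -0.19 and 0.07. The difference between media used 1 block per harvest and medium, and the slope was fitted to the 6 paired differences. GC content came from the longest coding transcript, and the GC correction was a loess per library (span 0.5). Alternatives were other pseudocounts, filters and scalings, GC correction, library weights, no block and each pair left out. The scripts were tested on simulated data. Libraries at 52 h were not analysed here, and some genes are not reported here. Genes were named by rule: the 10 largest increases and decreases past the threshold with 5 FPKM and 1 direction in 6 of 6 pairs, up to 3 per direction in each of 39 lists, the 5 largest per direction for media and slope, and 23 chosen genes. The members and lists were chosen with earlier results of these data known. Promoter windows and their motif matches came from RefSeq (GRCh38.p14); the files used hg38 coordinates.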

Additional observations from a re-analysis of the deposited data

Results flagged for a closer look

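Among the 246 sets of 6 libraries looked at (each gene named by the rule, on each day), 42 had a library whose gap to its nearest neighbour was too large for its group's range by Dixon's 95% limit, where chance gives about 5% of independent, unselected sets. These sets share the same 12 libraries, and many of their genes were named from these values, so the count is a description. Of the 42, 23 were high at 28 h, the library with the highest GC correlation (0.76), and 12 were high at 4 h. Genes high at 28 h on the second day were ACTB (2725 FPKM), AMDHD2 (18.5 FPKM), BIRC5 (84.9 FPKM), CCND1 (37.3 FPKM), CDKN1A (63.9 FPKM), COL1A1 (355 FPKM), CORO1B (64.6 FPKM), DDIT4 (40.6 FPKM), GAPDH (3389 FPKM), HSPB1 (283 FPKM), ID3 (14.6 FPKM), KRT17 (104 FPKM), MKI67 (48.4 FPKM), MYC (15.9 FPKM), NOP16 (104 FPKM), NR1D1 (20.6 FPKM), PER1 (20.7 FPKM), RPL26L1 (31.9 FPKM), RPS28 (280.5 FPKM), SLC7A11 (2.33 FPKM), SLC7A5 (34.6 FPKM), TAGLN (154 FPKM) and VEGFA (57.2 FPKM). The genes low at 28 h were CDH12 (14.4 FPKM), CXCL14 (77.5 FPKM), FTH1 (1936 FPKM) and SCD (242 FPKM). At 4 h on the first day the genes BIRC3 (100.6 FPKM), C8orf4 (13.3 FPKM), CDKN1A (59.2 FPKM), CNN1 (117 FPKM), CXCL8 (109 FPKM), GAPDH (2444 FPKM), HSPA5 (296 FPKM), MYC (34.0 FPKM), NFKBIA (108 FPKM), NOP16 (208 FPKM), SLC7A11 (9.61 FPKM) and TGFB2 (74.7 FPKM) stood apart and high. The other 3 were ACSS2 at 44 h (57.7 FPKM, high), EDEM1 at 24 h (49.7 FPKM, high) and RP11-598P20.5 at 40 h (10.3 FPKM, high). The part of GC content in single genes at 28 h was not tested.

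The day difference differed between pH 7.4 and pH 6.3 by the limma interaction term for 25 of the genes looked at for it (the 20 largest day differences and the genes named by rule for the media or chosen by name). Genes named by rule for the media were picked by this same term, so their place among the 25 was fixed in advance. The 20 largest day differences were picked on the same neutral libraries. The count is a description, and over all genes 1786 of 11824 differed (15.1%). In log2 units, neutral minus acid, it was positive for ACTB (0.60), CCND1 (1.18), CDH12 (2.07), CTGF (1.07), CXCL14 (2.92), DBP (1.74), EVI2A (1.08), F13A1 (1.92), FABP7 (2.20), FMNL2 (2.34), GULP1 (1.23), HMGA2 (2.17), HMGCS1 (0.80), MKI67 (0.73), PLCH1 (1.95) and SDPR (1.88). It was negative for AKR1C1 (-2.84), ARNTL (-0.90), ASNS (-1.44), C8orf4 (-2.91), NFATC2 (-1.29), NOX4 (-1.09), RP11-598P20.5 (-2.76), SAA1 (-3.20) and SAA2 (-3.31). AKR1C1 averaged 0.839 FPKM over the 12 neutral libraries and was not tested for the day there: it entered the 24-library comparison only through the second day in acid, so its value is a description. Neutral and acidic libraries came from the same plate sets, and each hour is 1 dish per medium.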

How the results depend on the processing

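The 93 named genes called for the day kept their direction under each setting run. In 10 genes that were not called, 26 values had the other sign (AMDHD2, BIRC3, CORO1B, CXCL8, MKI67, RP11-598P20.5, RP11-872D17.8, TGFB2 and TXNIP among them). Counts moved. For the day difference (higher, then lower; 480 and 358 as reported) they were 1035 and 213 after rescaling without mitochondrial DNA genes, 808 and 857 with GC correction, and 1849 and 2348 with library weights. Leaving out 1 pair gave from 100 to 1300 higher and from 62 to 1659 lower. Alternatives chosen after seeing the data gave 1040 and 1280 without 4, 24, 28 and 48 h, and 1277 and 1547 with GC correction and without 4 and 28 h. With no replicate block the counts were 418 and 341, and without the block and without 12, 28, 44 and 48 h they were 211 and 398. Without the block 15 of the 93 named genes lost their call. Among the 15 were CCNG2, CTGF, HMGA2, ID3, IFIH1, INSIG1, KLHL24, MYC, NFKBIA, NOP16, PGAM1, SLC7A5, TP53INP1 and UNG. For the difference between media (711 and 1075) leaving out 1 pair gave from 246 to 1017 and from 326 to 1669, GC correction gave 1654 lower, leaving out 4, 24, 28 and 48 h gave 1191 and 1962, and GC correction without 4 and 28 h gave 1168 and 2049. With no replicate block it gave 790 and 1303. For the slopes (864 rising, 3242 falling) upper-quartile scaling gave 2112 rising, quantile normalization 2243 and 2160, GC correction 421 and 856, leaving out 1 pair from 273 to 1093 and from 1887 to 3388, leaving out 4, 24, 28 and 48 h gave 11 and 108, and GC correction without 4 and 28 h gave 245 and 653. The cause of these changes was not tested. Fits with fewer pairs also have fewer degrees of freedom, and the part of that was not tested. Among the neutral libraries depth limits that of 12 h most (9.70 M fragments, 4301 genes at 0). In the comparison of media the pH 6.3 library at 8 h was shallow too (11.1 M fragments, 4615 genes at 0).

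Of the 838 called genes, 536 were still called after quantile normalization and 691 after rescaling without mitochondrial DNA genes. Without 1 of the 4 middle pairs 187, 193, 162 and 196 of 837 were. The share of mitochondrial DNA genes differed by 1.2 percentage points between the days over either denominator. P-values here compare pairs of single dishes, so they do not give the spread between repeated cultures.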

Other observations

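Of 24 cholesterol synthesis and uptake genes 2 rose (INSIG1 and STARD4) and none fell, and of 11 fatty acid synthesis genes 2 rose (ACSS2 and SCD) and none fell, where 4.04% of all genes tested were called higher. With counts this small nothing is read from these lists as groups. INSIG1, which retains the SREBP activator in the endoplasmic reticulum, lay between 17.7 FPKM at 4 h and 64.7 at 24 h on the first day (median 53.8), and between 65.7 at 28 h and 88.7 at 48 h on the second (median 79.6), and rose by 0.78 ± 0.18 (SE, adjusted p = 0.0467), a call lost without the harvest as a block (adjusted p = 0.0731 in limma), with no filter, with no trend and with any 1 pair other than 4 and 28 h left out (adjusted p from 0.0602 to 0.141 in limma). SCD, which makes monounsaturated fatty acids, rose by 0.43 ± 0.07 (SE, adjusted p = 0.0171), with every second-day value above the first day. HMGCS1 differed by 0.15 (adjusted p = 0.53).

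For the lists in this paragraph too, 4.04% of all genes tested were called higher and 3.01% lower. With counts this small nothing is read from these lists as groups. Of 13 interferon-induced genes 2 rose (DDX58 and IFIH1), 2 of the cytosolic RNA sensors, and none fell. DDX58, also named RIG-I, lay between 3.66 FPKM at 4 h and 9.89 at 24 h on the first day (median 5.99), and between 10.4 at 28 h and 21.4 at 48 h on the second (median 14.6), with no overlap, and rose by 1.15 ± 0.09 (SE, adjusted p = 0.00221). Of 19 p53 targets 3 rose (FAS, TP53INP1 and ZMAT3) and none fell, while CDKN1A differed by 0.06 ± 0.08 (SE, adjusted p = 0.711). Of 9 ERK feedback genes PHLDA1 rose, by 1.46 ± 0.20 (SE, adjusted p = 0.00851), and of 12 FOXO factors and targets CCNG2 and KLHL24 did. Of 15 NRF2 targets NQO1 and SLC7A11 fell and FTH1, the ferritin heavy chain, rose by 0.28 ± 0.05 (SE, adjusted p = 0.0219). Of 4 metallothionein and zinc genes tested, MT1E fell by 0.82 ± 0.11 (SE, adjusted p = 0.00821). Of 19 hypoxia genes SLC2A3 rose and CA12 and NDRG1 fell. Among 9 heat shock genes HSP90AB1 fell by 0.43 ± 0.07 (SE, adjusted p = 0.0115), and of 10 housekeeping genes ACTB and PPIA fell. EDEM1 was the 1 of 17 endoplasmic reticulum stress genes called, B2M the 1 of 10 antigen presentation genes, and both rose. None of 10 histone or 7 immediate early genes was called. Of the MondoA targets, TXNIP was tested and differed by -0.14 ± 0.15 (SE, adjusted p = 0.608).

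These counts moved with the pairs as well, as did those over all genes (1300 higher and 1659 lower without 4 and 28 h). Without a middle pair none of the fatty acid, p53, heat shock, endoplasmic reticulum stress or antigen presentation genes passed, and 0 or 1 of the cholesterol and FOXO genes did. Without 4 and 28 h there were 5 higher and 2 lower cholesterol genes, 5 and 3 p53 targets, 4 and 3 hypoxia genes, 1 and 10 NRF2 targets, 4 higher ERK feedback and 4 higher interferon-induced genes, 1 and 4 histone genes, 2 lower immediate early genes and 5 lower housekeeping genes. Without 24 and 48 h 1 p53 target, 1 cholesterol gene and 1 interferon-induced gene passed.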
